A study of Rattus norvegicus with 10 samples.

Results

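Mitochondrial ribosomal protein genes were taken as every row of the deposited count table whose symbol begins with Mrpl or Mrps followed by a digit, which gave 69 of 17168 genes. By symbol, 41 of them belong to the large subunit (Mrpl) and 28 to the small subunit (Mrps). The rule reads symbols alone and no measured value, although the family itself was picked with earlier results of these data known. The rats were male TgF-344AD transgenics (genotype Tg-AD, a Fischer 344 line made as a model of Alzheimer's disease), and left hippocampi were taken at 11 months of age, after perfusion. A stranded mRNA kit gave 1 library for each animal. In the ibudilast group, 5 rats ate chow with ibudilast, a drug that blocks phosphodiesterases, for 6 months beginning at an age of 5 months. The untreated group, also 5 rats, ate rodent chow. Rats of both groups carry the same transgenes, which are human mutant amyloid precursor protein and presenilin 1 genes under the mouse prion promoter, so neither group is a wild-type control. RNAlater-ICE, a storage reagent for frozen tissue, is mentioned for the ibudilast hippocampi alone, so treatment and storage cannot be told apart in any comparison below.

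Mitochondrial ribosomes translate the few messenger RNAs of mitochondrial DNA, all of which encode membrane subunits of the respiratory chain and ATP synthase. Their RNA is made inside the organelle, whereas every one of their proteins is encoded in the nucleus, made in the cytosol and imported. The small subunit binds the messenger RNA and reads its codons, and the large subunit joins the amino acids and feeds the chain to the inner membrane. Neurons and glia of the hippocampus draw on this supply for oxidative phosphorylation. In humans, inherited defects of several of these proteins cause combined respiratory chain deficiency.

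Libraries held 14806807 to 17114238 counts in ibudilast rats and 15984438 to 18533520 counts in untreated rats. Each of the 69 members had at least 48 counts in every library, and all 69 passed the filter on low counts. Some libraries stood apart by markers of cell types. The mean of 5 choroid plexus markers was 7.90 log2 CPM in ibudilast replicate 1 and 8.25 log2 CPM in untreated replicate 2, against at most 3.88 log2 CPM in the other rats. Excitatory neuron markers were lowest in ibudilast replicate 4, at a mean of 5.43 log2 CPM, and microglia markers were highest in untreated replicate 3, at 6.32 log2 CPM. Markers of the hippocampus were present in every library, with a summed level of 190 to 515 CPM in ibudilast rats and of 458 to 805 CPM in untreated rats, and no marker was at 0 in any library. Within that list ibudilast replicate 4 had the lowest mean, 4.74 log2 CPM, against 5.78 to 6.16 log2 CPM in the other ibudilast rats. Untreated replicate 3 also stood apart, at a mean of 5.12 log2 CPM against 6.10 to 6.59 log2 CPM in the other untreated rats. It had 4.495 CPM of Prox1 and 7.43 CPM of C1ql2, both markers of dentate granule cells. The other untreated rats had 30.4 to 51.9 CPM of Prox1 and 56.3 to 146 CPM of C1ql2. For Wfs1, a marker of CA1, untreated replicate 3 had 311 CPM and untreated replicate 5 had 409 CPM. Untreated replicates 1, 2 and 4 had 142 to 156 CPM of Wfs1. As a baseline for the marker counts that follow, 24.3% of all genes tested were called higher and 22.8% lower (adjusted p under 0.05 by edgeR). Of 11 oligodendrocyte markers 6 rose and 0 fell with ibudilast, with a summed level of 15784 to 18799 CPM in ibudilast rats and of 7732 to 15144 CPM in untreated rats. Markers of endothelial cells fell in 5 of 6 cases (146 to 259 CPM summed in ibudilast rats, 295 to 544 CPM in untreated rats), those of microglia in 4 of 7 (314 to 387 and 390 to 755 CPM), of astrocytes in 4 of 7 (5308 to 6577 and 5422 to 8045 CPM) and of excitatory neurons in 3 of 8 (1356 to 5886 and 4968 to 7633 CPM). Interneuron markers split, with 1 of 6 higher (Pvalb, at 1.03 on the log2 scale) and 2 lower (Gad1 at −0.69 and Gad2 at −0.90). Of 6 hippocampus markers tested, 0 rose and 1 fell (16.7%), a share no larger than that of all genes. In whole tissue, more cells of a type and more RNA per cell cannot be told apart, and the part of cell composition in the results below was not tested.

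Transcripts of mitochondrial ribosomal proteins were mostly higher in ibudilast rats than in untreated rats, by modest amounts. With edgeR's quasi-likelihood test and p-values adjusted over all genes (threshold 0.05), 38 of the 69 genes rose (55.1%), 1 fell and 30 did not pass. Over all 12355 genes tested, 24.3% were called higher and 22.8% lower, 47.1% in either direction. The median log2 fold change was 0.28 for the members and 0.02 for all genes tested, and 60 of 69 members had a positive value. The middle 50% of the members had log2 fold changes of 0.12 to 0.42, and the middle 50% of all genes tested had −0.35 to 0.37. For 33 members every ibudilast rat lay above every untreated rat, and for 0 members the order was the reverse; among all genes tested the shares were 18.0% and 15.4%. Of the 38 higher members, 33 were called in each of the 21 settings examined, which include leaving out each rat in turn and leaving out the 4 libraries that stood apart.

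**Figure D1:**
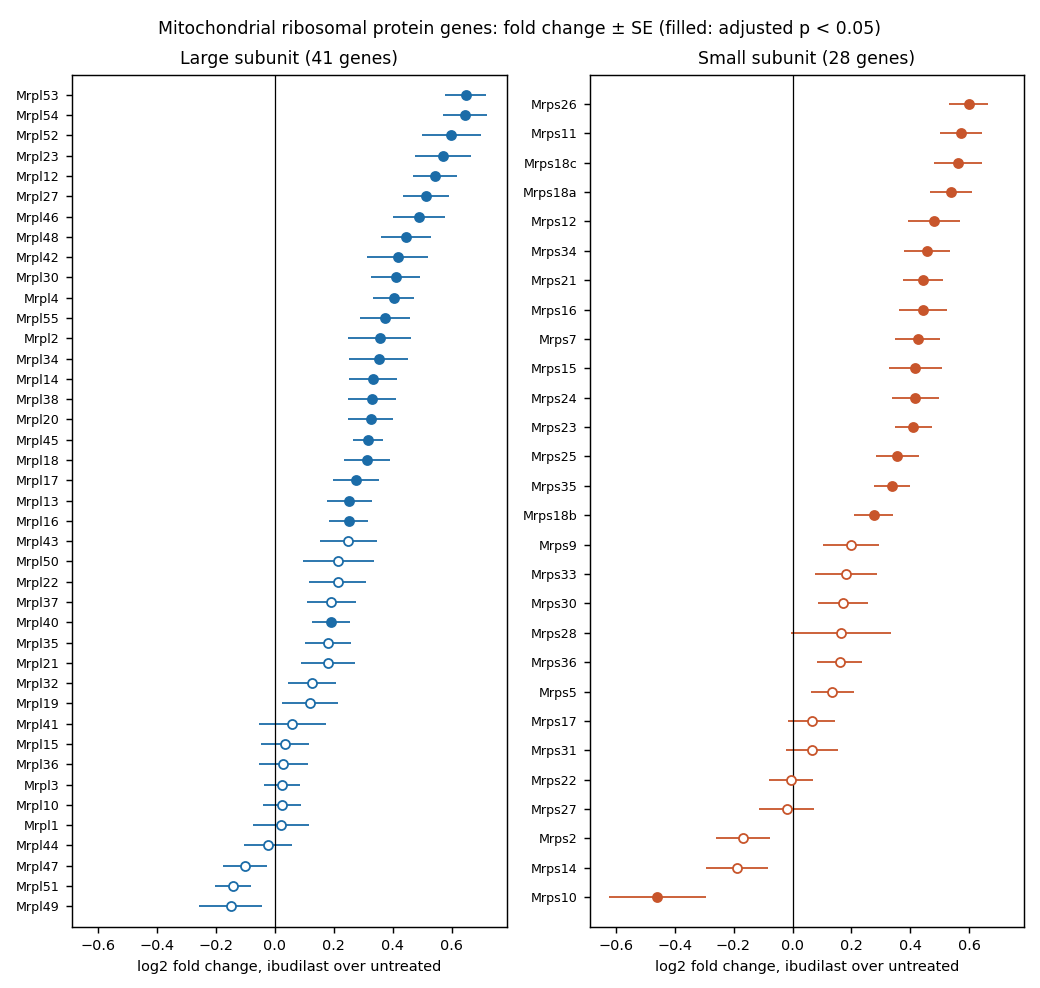
Log2 fold change of each of the 69 genes, ibudilast over untreated rats (x axis), with its standard error, for the large subunit (left panel, 41 genes) and the small subunit (right panel, 28 genes); filled points passed at an adjusted p under 0.05. Most points lie to the right of 0, from −0.15 to 0.65 in the large subunit and from −0.46 to 0.60 in the small subunit.

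In the large subunit, 23 of 41 genes rose, 0 fell and 18 did not pass, with a median log2 fold change of 0.25. Mrpl53, a protein found only in mitochondrial ribosomes and placed near the stalk, had 38.4, 37.6, 42.2, 37.8 and 42.4 CPM in ibudilast rats 1 to 5 and 24.2, 23.4, 27.6, 24.9 and 26.4 CPM in untreated rats 1 to 5. The ibudilast rats were all above the untreated rats, and the log2 fold change was 0.65 ± 0.07 (SE, adjusted p = 6.24e-05 by edgeR). This was the highest fold change of the 69 genes, a rise of 56.7%. Mrpl54, likewise without a bacterial counterpart, had 82.0, 95.2, 97.2, 85.5 and 89.6 CPM in ibudilast rats, against 54.6, 52.8, 63.9, 56.0 and 60.0 CPM in untreated rats. Its groups did not overlap either (log2 fold change 0.65 ± 0.07, adjusted p = 9.10e-05 by edgeR). Mrpl52, also specific to mitochondria, averaged 54.2 ± 1.56 CPM in ibudilast rats and 35.8 ± 5.82 CPM in untreated rats (SD, n = 5 each), a rise of 0.60 on the log2 scale. Its untreated mean was raised by replicate 3, at 45.8 CPM, which still lay below the lowest ibudilast rat, at 51.5 CPM. Mrpl23, which lines the exit of the peptide tunnel, averaged 30.7 ± 2.99 CPM in ibudilast rats and 20.7 ± 2.28 CPM in untreated rats (SD, n = 5 each; log2 fold change 0.57). Mrpl27, which reaches towards the site of peptide bond formation, averaged 54.9 ± 2.54 CPM with ibudilast and 38.4 ± 4.08 CPM without (SD, n = 5 each; log2 fold change 0.51).

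Structural neighbourhoods of the large subunit are described by their genes, with no test between them. In the stalk that recruits translation factors, Mrpl12 had 65.0, 78.6, 82.7, 79.3 and 77.5 CPM in ibudilast rats and 54.8, 49.8, 54.3, 49.3 and 54.6 CPM in untreated rats. It rose by 0.54 ± 0.07 on the log2 scale (adjusted p = 2.49e-04 by edgeR) with no overlap of the groups, although ibudilast replicate 1 was nearer to the untreated rats than the rest. Mrpl12 forms the mobile arm of the stalk and has been reported to bind the mitochondrial RNA polymerase in human cells. Mrpl10, the protein that anchors Mrpl12 to the ribosome, had 46.4, 45.9, 48.8, 43.5 and 49.9 CPM in ibudilast rats against 48.0, 48.4, 42.0, 46.4 and 45.8 CPM in untreated rats. The groups of Mrpl10 overlapped throughout, with a log2 fold change of 0.02 ± 0.06 (adjusted p = 0.783 by edgeR). Around the exit of the peptide tunnel, 8 genes were listed and 6 were matched by symbol, of which 3 rose and 3 did not pass. That share of 50% was near the 56.1% of all large subunit genes. Mrpl24, also listed, has a row in lower case outside the symbol rule, and rose by 0.53 on the log2 scale. Mrpl45, which ties the ribosome to the inner membrane, had 54.0, 58.1, 58.5, 56.3 and 59.3 CPM in ibudilast rats and 45.6, 44.4, 46.0, 46.8 and 47.0 CPM in untreated rats. It was among the least variable members, and its log2 fold change of 0.32 ± 0.05 came with an adjusted p of 6.91e-04 by edgeR. Mrpl44, a ribonuclease III relative at the same face of the ribosome, had a log2 fold change of −0.02 ± 0.08 (adjusted p = 0.846 by edgeR), a sign that turned with library size alone as the scaling.

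All 8 listed genes of the central protuberance rose, the crest of the large subunit that faces the small subunit. Their log2 fold changes ran from 0.19 (Mrpl40) to 0.60 (Mrpl52), with Mrpl18, Mrpl27, Mrpl38, Mrpl46, Mrpl48 and Mrpl55 in between. For 7 of the 8 the groups did not overlap. In the whole large subunit 56.1% of genes rose, and the groups did not overlap for 18 of 41. Over all genes tested, 24.3% were called higher, and for 18.0% every ibudilast rat lay above every untreated rat. The list was chosen with earlier results of these data known, and no test was made between it and the rest. Mrpl40 passed with an adjusted p of 0.0333 by edgeR, and leaving out single rats ended its call. The adjusted p was 0.0548, 0.0713 or 0.109 with ibudilast replicate 2, 3 or 4 removed, and 0.0800, 0.121 or 0.0985 with untreated replicate 1, 2 or 4 removed. Removing all 4 libraries that stood apart gave 0.0884, RLE factors gave 0.0535 and no filter on low counts gave 0.0952. In the current rat annotation 10 members overlap another gene of the table, among them Mrpl48 with Rab6a and Mrpl55 with Guk1. Rab6a was at −0.85 and Guk1 at 0.39 on the log2 scale, and whether reads were counted by strand is not given in the sources used here.

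Beyond the 6 largest, the large subunit had 17 more genes that rose, by 0.19 to 0.49 on the log2 scale. These were Mrpl2, Mrpl4, Mrpl13, Mrpl14, Mrpl16, Mrpl17, Mrpl18, Mrpl20, Mrpl30, Mrpl34, Mrpl38, Mrpl40, Mrpl42, Mrpl45, Mrpl46, Mrpl48 and Mrpl55. For 12 of the 17 the groups did not overlap, while those of Mrpl2, Mrpl17, Mrpl34, Mrpl38 and Mrpl42 overlapped. Mrpl2, a core protein of the peptidyl transferase region, no longer passed with untreated replicate 2 or 4 removed (adjusted p = 0.0512 and 0.0519), nor did Mrpl13 with ibudilast replicate 4 or untreated replicate 2 removed (0.0598 and 0.0652). The 18 genes that did not pass ran from −0.15 (Mrpl49) to 0.25 (Mrpl43, adjusted p = 0.0537 by edgeR). Mrpl3, which sits beside the catalytic centre, was one of them. Its level was 60.6 ± 4.23 CPM in ibudilast rats and 59.5 ± 1.46 CPM in untreated rats (SD, n = 5 each), a log2 fold change of 0.03 ± 0.06 that changed sign with no filter on low counts. Mrpl1, Mrpl15, Mrpl19, Mrpl21, Mrpl22, Mrpl32, Mrpl35, Mrpl36, Mrpl37, Mrpl41, Mrpl47, Mrpl50 and Mrpl51 lay within the same range.

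In the small subunit, 15 of 28 genes rose, 1 fell and 12 did not pass, with a median log2 fold change of 0.31. Mrps26, a protein specific to mitochondrial ribosomes, had 59.5, 67.1, 72.5, 66.3 and 70.9 CPM in ibudilast rats and 45.4, 42.4, 42.6, 44.9 and 47.0 CPM in untreated rats. The groups were apart, and the log2 fold change was 0.60 ± 0.07 (adjusted p = 8.08e-05 by edgeR). Mrps11, the counterpart of bacterial S11 on the platform of the subunit, had 32.8, 34.7, 38.1, 37.6 and 38.5 CPM in ibudilast rats against 26.1, 23.3, 25.5, 22.9 and 24.4 CPM in untreated rats. It rose by 0.57 ± 0.07 on the log2 scale (adjusted p = 1.26e-04 by edgeR), again without overlap. Mrps12, part of the decoding centre, averaged 24.7 ± 2.46 CPM in ibudilast rats and 17.7 ± 1.22 CPM in untreated rats (SD, n = 5 each; log2 fold change 0.48). Mrps34, another mitochondria-specific protein, averaged 45.4 ± 3.77 CPM in ibudilast rats and 33.1 ± 2.45 CPM in untreated rats (SD, n = 5 each; log2 fold change 0.46). Mrps16, whose loss causes a respiratory chain disorder in humans, rose by 0.44 ± 0.08 (SE). The remaining genes that rose, Mrps7, Mrps15, Mrps18b, Mrps21, Mrps23, Mrps24, Mrps25 and Mrps35, had log2 fold changes of 0.28 to 0.44. The groups did not overlap for 15 of 28 small subunit genes, the same 15 that rose, and for 18 of 41 large subunit genes. Among all genes tested, every ibudilast rat lay above every untreated rat for 18.0%.

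**Figure D2:**
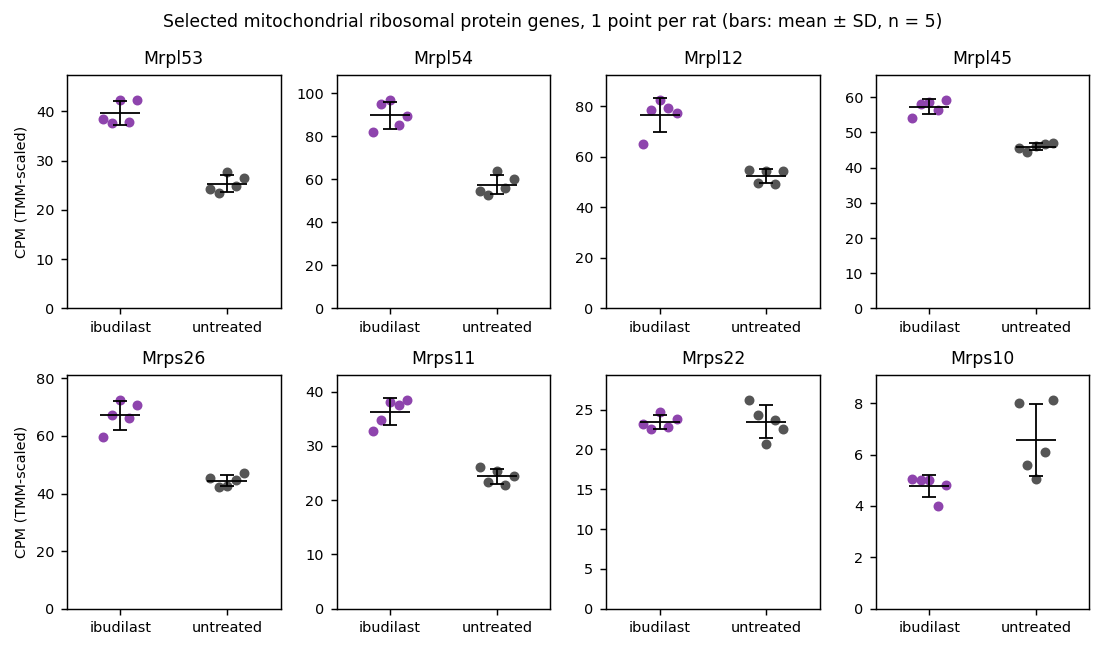
Level of 8 genes in CPM scaled by TMM factors (y axes, from 0), 1 point per rat, ibudilast rats left and untreated rats right, with the mean and SD of 5 rats. Mrpl53, Mrpl54, Mrpl12, Mrpl45, Mrps26 and Mrps11 show no overlap, Mrps22 is at 23.4 and 23.5 CPM on average, and the Mrps10 groups touch at about 5 CPM.

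The 3 paralogs of bacterial S18 all rose, although they occupy different places in the ribosome. Mrps18c, the counterpart that takes the bacterial position in the small subunit, had 24.0, 24.5, 28.5, 24.3 and 23.5 CPM in ibudilast rats and 16.9, 14.8, 17.7, 17.2 and 17.8 CPM in untreated rats (log2 fold change 0.56 ± 0.08, SE). Mrps18a, which is bound in the large subunit despite its symbol, averaged 55.9 ± 4.64 CPM in ibudilast rats and 38.5 ± 2.01 CPM in untreated rats (SD, n = 5 each; log2 fold change 0.54). Mrps18b, a small subunit protein at a position of its own, had 34.1, 39.3, 41.6, 41.4 and 37.6 CPM in ibudilast rats and 32.5, 31.7, 31.3, 31.8 and 33.1 CPM in untreated rats. Its untreated values were the tightest of all members, with a coefficient of variation of 2.16%, and its log2 fold change of 0.28 ± 0.07 had an adjusted p of 0.00641 by edgeR. All ibudilast rats were above all untreated rats for each of the 3 paralogs, but the difference between paralogs was not tested.

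Mrps10 was the one member called lower. This counterpart of bacterial S10, in the head of the small subunit, had 5.07, 5.00, 5.02, 4.02 and 4.80 CPM in ibudilast rats and 7.995, 5.58, 5.06, 6.09 and 8.13 CPM in untreated rats. The groups overlapped at untreated replicate 3, and untreated replicates 1 and 5 were the high values. The log2 fold change was −0.46 ± 0.16 (SE, adjusted p = 0.0389 by edgeR). Removing any single ibudilast rat ended that call, with adjusted p-values of 0.0532, 0.0618, 0.0573, 0.0647 and 0.0711 for replicates 1 to 5. Removing untreated replicate 1 or 5 did so too (0.0993 and 0.101), as did scaling by library size alone (0.0717), and the log2 fold change in these settings was −0.48 to −0.37. In the current rat annotation 23 members, Mrps10 among them, have pseudogenes named after them, so their reads can be shared with copies.

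The other 12 genes of the small subunit did not pass, with log2 fold changes of −0.19 (Mrps14) to 0.20 (Mrps9). Mrps22, a mitochondria-specific protein linked to disease in humans, had 23.2, 22.6, 24.7, 22.8 and 23.8 CPM in ibudilast rats and 26.2, 24.3, 20.7, 23.6 and 22.6 CPM in untreated rats. The ibudilast values fell inside the untreated range, at a log2 fold change of −0.0046 ± 0.07 (adjusted p = 0.968 by edgeR). Mrps30 is a small subunit protein by symbol that structures place in the large subunit, and it was at 0.17 ± 0.09 (adjusted p = 0.123 by edgeR). It passed without untreated replicate 1 (0.23, adjusted p = 0.0394). Mrps36, now known as a component of the 2-oxoglutarate dehydrogenase complex and not of the ribosome, was at 0.16 ± 0.08 (adjusted p = 0.116 by edgeR), and passed with library size alone (0.23, adjusted p = 0.0372). Mrps2, Mrps5, Mrps17, Mrps27, Mrps28, Mrps31 and Mrps33 were also among those that did not pass.

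Levels of both subunits were then compared rat by rat. In ibudilast rats 1 to 5 the mean level of the 41 large subunit genes was 4.93, 5.07, 5.17, 5.02 and 5.11 log2 CPM, and in untreated rats 1 to 5 it was 4.82, 4.77, 4.77, 4.78 and 4.86 log2 CPM. For the 28 small subunit genes the means were 4.82, 4.92, 5.03, 4.89 and 4.97 log2 CPM in ibudilast rats and 4.74, 4.64, 4.59, 4.67 and 4.74 log2 CPM in untreated rats. Every ibudilast rat was above every untreated rat for both subunits, and ibudilast replicate 1 was the lowest and replicate 3 the highest of its group in both. The large minus small difference averaged 0.133 ± 0.00873 in ibudilast rats and 0.125 ± 0.0341 in untreated rats (SD, n = 5 each, log2 CPM), and the ibudilast values lay within the untreated range of 0.0850 to 0.179. With genes placed by structure (Mrps18a and Mrps30 in the large subunit, Mrps36 in neither), 24 of 43 large and 14 of 25 small subunit genes rose, with median log2 fold changes of 0.25 and 0.34. No p is given for a mean over the family, since it was picked with results known.

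**Figure D3:**
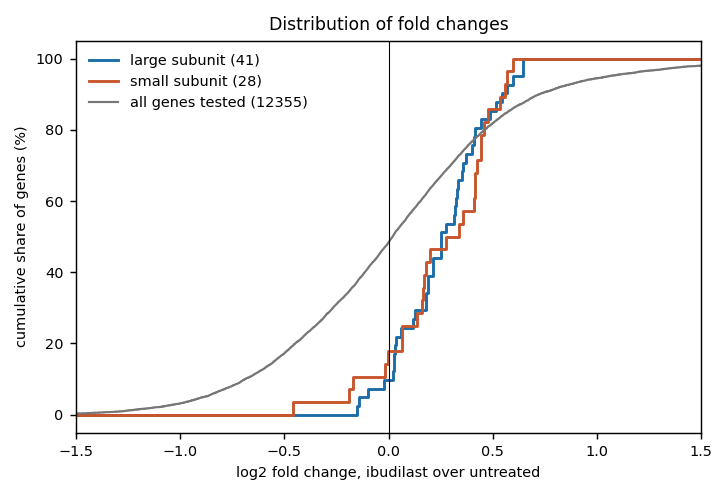
Cumulative share of genes (y axis, percent) up to a given log2 fold change, ibudilast over untreated rats (x axis, cropped at both ends), for 41 large subunit genes, 28 small subunit genes and all 12355 genes tested. The curves of both subunits run close together and reach 50% at 0.25 and near 0.31, while that of all genes reaches 50% near 0.02 and has wider tails on either side.

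Members with a bacterial counterpart and members counted as without one had close shares of calls, though the difference was not tested. Of 40 members with a bacterial counterpart, 22 rose and 1 fell, at a median log2 fold change of 0.26. Among 28 ribosomal members counted as without a counterpart, 16 rose and 0 fell, at a median of 0.30. These include Mrps18a and Mrps18b, which are paralogs of bacterial S18 but do not take its position. Within the small subunit the medians were 0.42 for 15 genes with a counterpart and 0.31 for 12 without, and within the large subunit they were 0.25 for 25 genes and 0.28 for 16 genes. Spread between rats was small for most members: the coefficient of variation had a median of 8.75% in ibudilast rats and 6.92% in untreated rats. The widest spread was 17.4% in ibudilast rats (Mrps28) and 21.5% in untreated rats (Mrps10), both genes of low count.

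Most mitoribosome proteins outside the symbol rule rose as well. The table holds 3 further large subunit rows spelled in lower case, mrpl9, mrpl11 and mrpl24, which rose by 0.42, 0.32 and 0.53 on the log2 scale, each without overlap of the groups. Of 7 mitoribosome proteins with other symbols, 6 rose and 1 did not pass. Chchd1, a small subunit protein with a cysteine-rich helix pair, had 36.5, 39.0, 49.9, 38.0 and 46.0 CPM in ibudilast rats and 24.0, 23.2, 25.3, 23.6 and 24.2 CPM in untreated rats. Its log2 fold change, 0.80 ± 0.09 (adjusted p = 9.14e-05 by edgeR), was above that of every Mrpl or Mrps gene. Ict1, a peptidyl-tRNA hydrolase built into the large subunit, averaged 33.2 ± 1.31 CPM in ibudilast rats and 21.9 ± 1.00 CPM in untreated rats (SD, n = 5 each; log2 fold change 0.60). Mrp63, a further large subunit protein, averaged 31.3 ± 2.74 CPM with ibudilast and 22.5 ± 1.10 CPM without (SD, n = 5 each; log2 fold change 0.48). Ptcd3, Aurkaip1 and Gadd45gip1 rose by 0.36, 0.32 and 0.40, and Dap3, a GTP-binding protein of the small subunit, was at 0.14 (adjusted p = 0.0758 by edgeR).

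Factors that build the mitochondrial ribosome had a share of rises close to that of the members, a difference that was not tested. Of 27 measured assembly genes, 15 rose (55.6%), 2 fell and 10 did not pass, with a median log2 fold change of 0.31. Ybey, which human cells need for small subunit assembly and which acts there with Mrps11, had 31.2, 27.1, 28.2, 32.3 and 32.8 CPM in ibudilast rats and 9.38, 10.2, 16.1, 12.4 and 10.6 CPM in untreated rats. The groups did not overlap, and the rise of 1.37 ± 0.14 on the log2 scale (adjusted p = 5.20e-05 by edgeR) was above that of any of the 69 members. Gtpbp5, a GTPase of large subunit maturation, rose by 0.71, and Wbscr16, part of a module that modifies the large ribosomal RNA, by 0.49. Tfb1m, the methyltransferase of the small ribosomal RNA, fell instead. It had 15.8, 16.6, 14.3, 13.3 and 15.5 CPM in ibudilast rats and 22.3, 19.9, 20.7, 21.6 and 20.2 CPM in untreated rats, with a log2 fold change of −0.47 ± 0.08 (adjusted p = 8.23e-04 by edgeR). Gtpbp10, a second GTPase of the large subunit, was at −0.30 (adjusted p = 0.0391 by edgeR), with groups that overlapped. Removing any single ibudilast rat ended its call (adjusted p = 0.0591, 0.0508, 0.0576, 0.0563 and 0.0819 for replicates 1 to 5), as did removing untreated replicate 1, 2 or 4 (0.0993, 0.0692 and 0.0656). It was also not called when the 4 libraries standing apart were removed (0.0826) or when scaled by library size alone (0.132).

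Of 18 mitochondrial translation and transcription factors, 4 rose (22.2%), 3 fell (16.7%) and 11 did not pass, at a median log2 fold change of 0.03. These shares were near the 24.3% higher and 22.8% lower of all genes tested, so they are not a result about the list. Polrmt, the mitochondrial RNA polymerase, had 48.4, 51.8, 49.5, 53.2 and 52.9 CPM in ibudilast rats against 29.9, 29.8, 31.4, 25.4 and 29.1 CPM in untreated rats. It rose by 0.81 ± 0.07 on the log2 scale (adjusted p = 2.14e-05 by edgeR), without overlap. Slirp and Lrpprc, which bind each other and stabilise mitochondrial messenger RNAs, went opposite ways. Slirp averaged 26.7 ± 3.76 CPM in ibudilast rats and 17.8 ± 1.99 CPM in untreated rats (SD, n = 5 each; log2 fold change 0.58). Lrpprc averaged 86.6 ± 4.78 CPM in ibudilast rats and 123 ± 9.99 CPM in untreated rats (SD, n = 5 each; log2 fold change −0.51). Gfm1, the elongation factor that moves the ribosome along, fell by 0.51 ± 0.08 on the log2 scale, and Taco1, an activator of cytochrome oxidase subunit translation, fell by 0.67 ± 0.16. Mtif2, the initiation factor that brings the first transfer RNA, was at 0.35 (adjusted p = 0.0238 by edgeR), and did not pass with ibudilast replicate 2 or 3 removed (0.0529 and 0.0571) or untreated replicate 2, 3 or 4 removed (0.0637, 0.0580 and 0.0694).

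**Figure D4:**
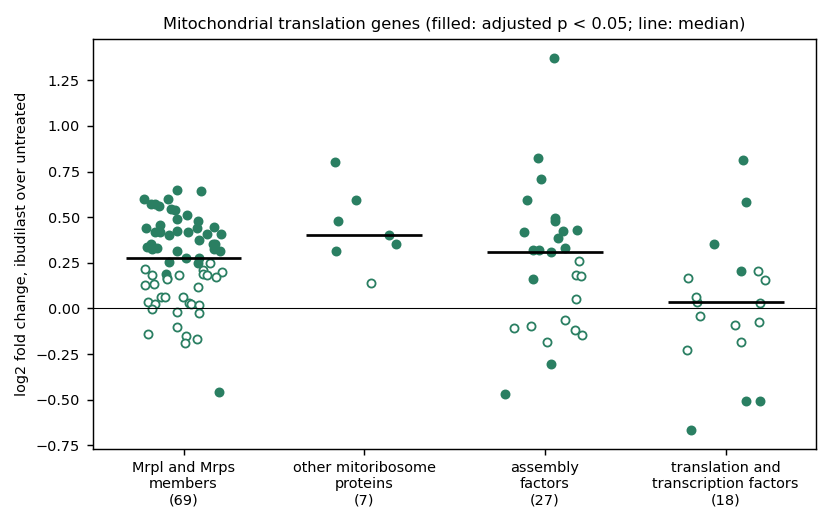
Log2 fold change, ibudilast over untreated rats (y axis), of genes in 4 lists (x axis, with the number measured); filled points passed at an adjusted p under 0.05 and lines mark medians. The medians are 0.28 for Mrpl and Mrps genes, 0.40 for other mitoribosome proteins, 0.31 for assembly factors and 0.03 for translation and transcription factors.

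Cytosolic ribosomal proteins and nuclear respiratory chain genes are the groups nearest to the mitochondrial ribosome in function. In the same fit 76 of 81 cytosolic ribosomal protein genes rose and 0 fell, at a median log2 fold change of 0.52. Of 78 respiratory chain genes, 48 rose and 5 fell, at a median of 0.30. Among all genes tested, 24.3% were called higher and 22.8% lower. The mitochondrial ribosome, with 38 of 69 and a median of 0.28, stood beside the respiratory chain in share and median. Levels in 1 rat, untreated replicate 3, differed between the 3 groups of genes. Untreated replicate 3 had a mean of 8.07 log2 CPM for the cytosolic genes, close to the 8.08 log2 CPM of the lowest ibudilast rat and above the 7.42 to 7.63 log2 CPM of the other untreated rats. For the 69 mitochondrial genes the same rat had the lowest mean of all, 4.70 log2 CPM, against 4.89 to 5.11 log2 CPM in ibudilast rats and 4.72 to 4.81 log2 CPM in the other untreated rats. For the respiratory chain genes it had the highest untreated mean, 6.59 log2 CPM, against 6.43 to 6.53 log2 CPM in the other untreated rats. All ibudilast rats lay above that, at 6.71 to 6.86 log2 CPM. Within the members, untreated replicate 3 was high for single genes, among them Mrpl52, Mrpl27 and Mrpl42, at 45.8, 44.8 and 35.34 CPM. For Mrpl42 it lay just above the lowest ibudilast rat, at 35.30 CPM, so those groups overlapped.

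**Figure D5:**
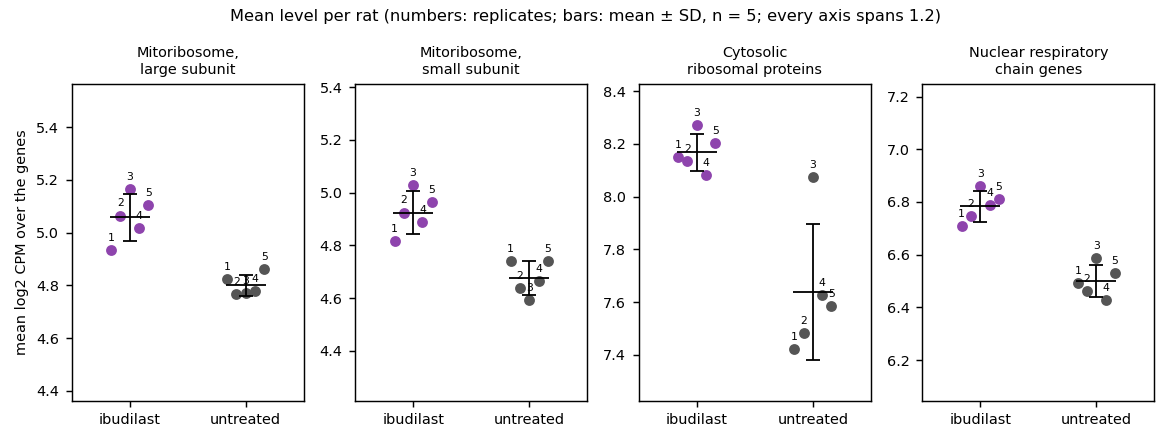
Mean log2 CPM per rat (y axes, each spanning the same distance) of large subunit genes, small subunit genes, cytosolic ribosomal protein genes and nuclear respiratory chain genes, ibudilast rats left and untreated rats right; numbers are replicates and bars are mean and SD of 5 rats. Untreated replicate 3 sits at 8.07 in the cytosolic panel, near the ibudilast rats, and among the untreated rats in both mitoribosome panels.

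Promoters of the members were searched for motifs known from genes of mitochondrial proteins. A window of 300 bases around the start (250 before, 50 after) was given by RefSeq for 54 of the 69 genes on the GRCr8 build. Motifs were searched on both strands: the palindromic site of NRF1, its shorter core GCATGCGC, which the palindrome contains, the ETS core CCGGAAG, the YY1 site AAGATGGCG, and the E-box CACGTG. The ETS core lay in 18 of 54 windows (33.3%), against 16.4% of the windows of 9220 genes tested. The YY1 site lay in 9 windows (16.7%, against 3.60%), the whole NRF1 site in 4 (7.41%, against 1.87%), its core in 5 (9.26%, against 4.85%) and the E-box in 6 (11.1%, against 9.27%). Among the 31 genes with a window that rose, 13 held the ETS core and 3 the YY1 site, and among the 23 that did not rise, 5 held the ETS core and 6 the YY1 site. A match is a stretch of letters and not a bound site.

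The windows of 5 genes are given 5′ to 3′ on the strand of the gene, with motif matches in capitals. Mrpl53 and Mrps26 had the highest fold change of their subunits, Mrpl46 starts opposite Mrps11 and the windows share 267 bases, Mrps18b holds the NRF1, ETS and E-box letters together, and Mrps10 was the member called lower.
Mrpl53, chr4:117172793-117173092, plus strand: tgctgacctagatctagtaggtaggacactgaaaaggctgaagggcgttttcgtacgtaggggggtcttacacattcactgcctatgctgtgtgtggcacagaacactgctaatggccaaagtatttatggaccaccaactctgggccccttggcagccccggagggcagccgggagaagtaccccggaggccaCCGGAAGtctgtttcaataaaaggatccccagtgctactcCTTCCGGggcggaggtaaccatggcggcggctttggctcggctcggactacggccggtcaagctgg
Mrps26, chr3:138222074-138222373, plus strand: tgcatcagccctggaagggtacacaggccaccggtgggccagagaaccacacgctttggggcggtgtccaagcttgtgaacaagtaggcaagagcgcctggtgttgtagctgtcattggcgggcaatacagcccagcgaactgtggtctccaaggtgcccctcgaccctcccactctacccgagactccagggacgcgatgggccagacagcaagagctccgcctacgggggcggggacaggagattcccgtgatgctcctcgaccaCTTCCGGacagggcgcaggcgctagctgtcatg
Mrpl46, chr1:142116981-142117280, minus strand: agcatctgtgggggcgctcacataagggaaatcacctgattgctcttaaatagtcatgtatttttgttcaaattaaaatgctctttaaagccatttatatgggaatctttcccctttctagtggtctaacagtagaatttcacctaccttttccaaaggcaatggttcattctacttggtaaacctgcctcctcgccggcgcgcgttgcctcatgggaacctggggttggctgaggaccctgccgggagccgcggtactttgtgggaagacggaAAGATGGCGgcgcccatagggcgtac
Mrps18b, chr20:2842756-2843055, plus strand: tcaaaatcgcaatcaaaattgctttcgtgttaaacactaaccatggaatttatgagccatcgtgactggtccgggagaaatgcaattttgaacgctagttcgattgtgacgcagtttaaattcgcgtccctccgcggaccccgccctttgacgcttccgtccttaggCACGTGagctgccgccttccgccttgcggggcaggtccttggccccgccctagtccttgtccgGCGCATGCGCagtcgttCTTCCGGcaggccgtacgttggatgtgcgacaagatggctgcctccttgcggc
Mrps10, chr9:21122404-21122703, minus strand: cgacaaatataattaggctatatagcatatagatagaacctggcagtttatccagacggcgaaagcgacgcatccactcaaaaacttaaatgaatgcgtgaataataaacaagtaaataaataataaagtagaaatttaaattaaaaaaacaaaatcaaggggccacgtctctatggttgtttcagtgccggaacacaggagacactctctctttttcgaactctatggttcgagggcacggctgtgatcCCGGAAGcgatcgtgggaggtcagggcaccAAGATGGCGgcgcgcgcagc
The window of Mrpl53 held the ETS core on either strand and that of Mrps26 held it once, on the reverse strand. The YY1 match of Mrpl46 lies outside the stretch shared with Mrps11, whose own window held 0 YY1 matches. Mrps10, called lower, held the ETS core and the YY1 site.

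Several members start next to another gene that is read the other way. For 14 of the 54 genes (25.9%) another gene started within 300 bases on the opposite strand, pointing away, against 962 of 9220 genes tested (10.4%). Mrpl46 and Mrps11 form such a pair, with 234 bases between their starts, so that 1 stretch of DNA lies before a large subunit gene and a small subunit gene. Mrpl46 had 22.6, 26.0, 29.6, 26.3 and 28.0 CPM in ibudilast rats and 19.4, 17.6, 18.2, 18.2 and 21.0 CPM in untreated rats, a rise of 0.49 ± 0.09 on the log2 scale, beside 0.57 ± 0.07 for Mrps11. The other neighbours were described after their values were seen, and among those tested Mitd1 was the one partner called together with its member. Mrpl30 was at 0.41 and Mitd1 at 0.62. Mrps18c, Mrps7 and Mrpl40 were called higher, at 0.56, 0.42 and 0.19, while their partners did not pass: Helq was at 0.25 (adjusted p = 0.0804 by edgeR), Gga3 at 0.10 (0.345) and Hira at 0.11 (0.460). Mrpl32 and Psma2 both did not pass, at 0.13 and −0.16. Mrps27 was at −0.02 (adjusted p = 0.887 by edgeR) while its partner Ptcd2 was at 0.56 (adjusted p = 9.39e-04 by edgeR). Mrpl49 was at −0.15 (adjusted p = 0.274 by edgeR) while Fau, which encodes a cytosolic ribosomal protein, was at 0.56 (adjusted p = 0.00604 by edgeR). Mrpl47 was at −0.10 (adjusted p = 0.300 by edgeR) while Ndufb5, a complex I subunit that also overlaps it, was at 0.30 (adjusted p = 0.00775 by edgeR).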

How the data were processed

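Expected counts per gene symbol were deposited by the authors without normalization, and a second deposited table holds the authors' TMM-normalized signal. The constant that scales each library of that signal was not compared with library sizes. Tools listed in the submitters' processing notes are RSEM 1.2.15, Bowtie2 2.1.0, bcl2fastq and edgeR, with rn6 as the build; their roles and the annotation are not stated there. Before testing, the 12% of count values that were not whole were rounded. All 20 sample columns were matched by title. No 2 libraries of a group agreed within sampling noise (lowest chi-square per gene 11.6). The replicates are separate rats.

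Genes were tested in R 4.3.3 by the quasi-likelihood F test of edgeR 4.0.16 (with limma 3.58.1), with TMM factors, a robust fit and filterByExpr. Benjamini-Hochberg adjustment covered all 12355 genes that passed the filter (threshold 0.05). On simulated counts of 12291 genes for ibudilast against untreated rats, the test called 16 of 100 genes given a log2 fold change of 0.5, and 62 of 96 given one of 1, with 1 false call. Few genes were changed there, which makes the adjusted threshold stricter than in the rats; members that did not pass are not shown to be unaltered. Levels are TMM-scaled CPM, and log2 CPM has a prior count of 2. Genes have no length correction, so levels are compared between rats and not between genes. Errors of fold changes are SE, and those of levels are SD. Members, gene lists and alternatives were chosen with earlier results of these data known. Named members were the 6 largest rises and falls per subunit that passed, the S18 paralogs and members of known role or unusual placement; pathway genes were the 3 with the smallest p per list and direction. Other members given with values of their own, and the neighbours of members, were named after their values were seen. Alternatives were other scalings, filters and tests (DESeq2 1.42.0, voom, and limma-trend on log2(signal + 1)), a replicate block, leaving out rats, and whole reads recovered from the signal, of which 100% were whole within 0.01; that last alternative was chosen after seeing the data. Promoter windows came from RefSeq (GRCr8), matched by symbol for 54 of 69 members. Protein and transcript sequences were not analysed here.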

Additional observations from a re-analysis of the deposited data

Results flagged for a closer look

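Among 80 groups of 5 values examined for the named genes and for subunit means, 5 held a rat separated from the nearest other rat by more than 0.71 of the group's whole range. Chance marks about 1 in 20 groups in this way. In ibudilast rats, replicate 3 had the lowest Mrpl52 level of its group, 51.54 CPM, and the highest Mrps18c level, 28.52 CPM. Ibudilast replicate 4 had the lowest Mrps10 level, 4.016 CPM. In untreated rats, replicate 3 had the lowest level of Mrpl44, 20.48 CPM, and of Taco1, 3.684 CPM.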

How the results depend on the processing

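The count of members higher was 34 to 43 over all settings (38 as reported), and their median log2 fold change was 0.23 to 0.34 (0.28 as reported); both kept their direction and stayed within their margins. Leaving out 1 rat gave 35 to 41 members higher, 20 to 25 in the large and 15 to 16 in the small subunit, and medians of 0.23 to 0.32 for all members, 0.22 to 0.31 for the large and 0.27 to 0.33 for the small subunit. The count of members lower was 1 as reported and 0 with library size alone and with the replicate block, all of it in the small subunit; without 1 rat it was 0 to 3 (0 to 2 in the small and 0 to 1 in the large subunit); the cause was not tested. Mrpl51 and Mrps14 passed as lower without untreated replicate 2, and Mrps2 without untreated replicate 3. No sign was found that replicate numbers pair the rats, and no label says that they do. Same-numbered rats correlated at −0.328 to 0.416 in their deviations from the group means. Of 5 ibudilast rats, 1 was most like its own number. The 4 libraries that stood apart were included, so these values cannot exclude pairing. With the replicate block 34 members were higher, all among the 38; Mrpl2, Mrpl16, Mrpl17 and Mrpl40 were lost, and Mrps10 (−0.44, adjusted p = 0.0886), Gtpbp10 (−0.30, 0.106) and Mtif2 (0.35, 0.0716) lost their calls. Genes near 0 changed sign: Mrpl44 to 0.0428 and Mrps22 to 0.0622 with library size alone, Mrps22 to 0.0009 with a mean of at least 1 CPM, and Mrpl10 to −0.0049 and Mrpl3 to −0.004 with no filter. Without 1 rat, Mrpl10 lay at −0.0325 to 0.0376, Mrpl3 at −0.0157 to 0.0371 and Mrps22 at −0.0722 to 0.036, and each turned sign. Library size alone moved the median of all genes to 0.0895. RNA degradation measures and transcript lengths were not analysed here. Mrps10 and Mrps28 had the fewest reads, down to 48 counts in a library, which limits their precision.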
